A study of Mus musculus with 2 samples.

Results

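A set of 10 genes that mark Kupffer cells was followed on 2 single-colour oligonucleotide arrays of mouse liver RNA. They were C1qa, C1qb, C1qc, Clec4f, Cd5l, Cd68, Csf1r, Marco, Lyz2 and Adgre1, a list of names, and each was read from the probe sets that the platform annotation gives to that gene alone. All 10 of the 10 listed genes had such a probe set, 15 sets in all, among 8251 named genes on the array. Of the 10, 5 had 1 set and 5 had 2 (C1qb, Cd68, Csf1r, Lyz2 and Adgre1), and the set with the higher mean log2 signal stood for the gene. The titles of both samples say liver and their descriptions name 1 purchased liver RNA product, but the source field says spleen. The labels give 1 group of 2 samples with no treatment, and no strain, age, sex or number of animals, so the values describe liver RNA with no contrast and no test. Nothing in the labels says that the samples came from separate animals or extractions, and the spread between the arrays may be technical.

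Kupffer cells are the resident macrophages of the liver. They sit in the sinusoids, the small vessels between plates of hepatocytes, where they take up particles, bacteria and worn-out red cells from the blood. Macrophages depend on the receptor tyrosine kinase Csf1r for survival, recognise their targets with scavenger receptors, lectins and complement, and digest them in lysosomes. In RNA of whole liver, fewer cells of a type and less RNA per cell cannot be told apart.

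The values are deposited signal intensities on a linear scale. Over all 12488 probe sets the median signal was 163.2 and 157.7 on replicates 1 and 2, and without the outer 2% at each end the mean was 500.5 on either array. A gene was called above background when its signal exceeded, on each array, the 95th percentile of a list of 95 genes typical of brain, testis, eye or skeletal and heart muscle, which was 482.7 on replicate 1 and 478.8 on replicate 2. Of all 8251 genes, 2434 (29.5%) passed on both arrays. A gene below the threshold is not above background, which does not mean that it is absent. Probe brightness depends on probe sequence, so a signal places a gene in the range of its array and does not rank transcripts.

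Most of the markers lay in the bright part of both arrays. Of the 10 genes, 7 (70%) passed on both arrays, namely C1qa, C1qb, C1qc, Clec4f, Cd5l, Csf1r and Lyz2, against 29.5% of all genes. Cd68 passed on replicate 1 alone, and Marco and Adgre1 passed on neither array. The shares of 70% and 29.5% are not a like comparison. Of the 10 genes, 5 had 2 sets to take the brighter from, whereas 2073 of all 8251 genes had over 1 set. The 10 genes were also chosen with earlier results of these data known. The median percentile of the 10 genes among all named genes was 84.2 on replicate 1 and 81.6 on replicate 2, against medians of 50.01 and 50.02 for all genes. The range was wide, from percentile 93.6 for C1qc to 8.3 for Marco (mean of both arrays). The plot of signals by probe set shows every value.

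**Figure D1:**
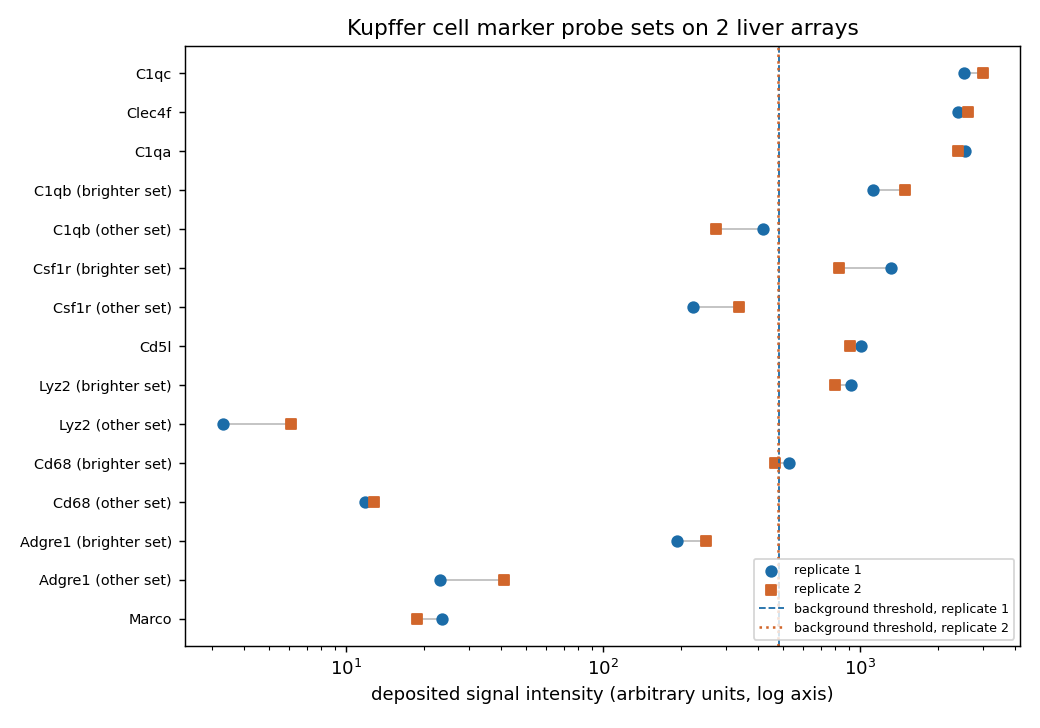
Deposited signal intensity (log axis, arbitrary units) of the 15 probe sets of the 10 marker genes, with 1 point per array and dashed or dotted lines at the background thresholds of 482.7 and 478.8. The sets of C1qc, Clec4f and C1qa and the brighter sets of C1qb, Csf1r and Lyz2 lie right of both lines with Cd5l, the brighter set of Cd68 straddles them, and the other set of each gene that has 2 lies to the left.

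The complement component C1q was represented by all of its chains. C1qa, C1qb and C1qc encode the A, B and C chains, which assemble into the molecule that recognises antibody-coated and dying cells and starts the classical complement pathway, and macrophages are its main source. C1qa gave 2541.7 on replicate 1 and 2386.8 on replicate 2 (2464 ± 109.5, SD, n = 2 arrays). C1qc gave 2540.7 and 2985.9 (2763 ± 314.8), and the brighter set of C1qb gave 1116.1 and 1488.9 (1302.5 ± 263.6). All of these lie above the threshold on both arrays, at mean percentiles of 93.0, 93.6 and 86.7. The second set of C1qb gave 418.8 and 273.4 and was not above background.

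In the RefSeq gene table of assembly GRCm38.p6 the 3 C1q genes follow each other in the order C1qb, C1qc, C1qa with no other protein-coding gene between them. Because these neighbours were all above background, the 250 bases before the start of C1qb (chr4:136886201-136886450, minus strand) and of C1qc (chr4:136892915-136893164, minus strand) are shown from RefSeq, build GRCm38.p6, 5′ to 3′, with capitals on the letters GAGGAA on either strand, the core of sites for the macrophage factor PU.1.
C1qb: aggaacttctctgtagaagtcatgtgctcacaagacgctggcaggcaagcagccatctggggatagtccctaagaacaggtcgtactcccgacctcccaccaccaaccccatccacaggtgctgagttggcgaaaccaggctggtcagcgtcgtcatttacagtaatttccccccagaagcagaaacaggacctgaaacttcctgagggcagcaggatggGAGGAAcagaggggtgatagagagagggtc
C1qc: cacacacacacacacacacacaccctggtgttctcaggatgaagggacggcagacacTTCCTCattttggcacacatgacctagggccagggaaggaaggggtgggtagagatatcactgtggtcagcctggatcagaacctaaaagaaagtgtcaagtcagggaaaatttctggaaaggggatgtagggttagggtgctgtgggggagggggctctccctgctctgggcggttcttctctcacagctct
The match begins 30 bases before the start in C1qb and 193 bases before it, on the opposite strand, in C1qc. A match of letters is a description and not a binding site.

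Partners of C1q in the pathway were followed beside it. Of 12 measured genes of the classical complement list 7 were above background (58.3%), and without the C1q genes 4 of 9 were. Serping1, the inhibitor of the C1 proteases, gave 16277 on replicate 1 and 17778 on replicate 2, C1ra, a protease that binds C1q, 1640.1 and 1594.6, and the complement protease C2 1352.0 and 1581.1. Hepatocytes also make these proteins. C4bp, a regulator of the pathway, gave 6971.4 and 6790.8, and the lowest gene of the list was Calr, calreticulin, at 16.4 and 28.4. The value of Calr rests on 1 probe set, and whether that set works was not tested.

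Clec4f and Cd5l were above background. Clec4f is a galactose-binding C-type lectin that in mice is largely restricted to Kupffer cells. Its single probe set gave 2407.5 on replicate 1 and 2615.3 on replicate 2 (2511 ± 146.9), at percentile 93.1. Cd5l is a secreted scavenger receptor cysteine-rich protein, made by tissue macrophages of liver and spleen among others, that binds lipids and pathogens. Its single set gave 1003.1 and 911.7 (957.4 ± 64.6), at percentile 83.0. Both arrays agreed on the side of the threshold for each gene. Of 8 measured C-type lectins, 3 were above background (37.5%), Clec4f and the hepatocyte galactose receptors Asgr1 and Asgr2. Asgr1 gave 8470.2 and 8826.2, Mrc1, the macrophage mannose receptor, 287.2 and 257.3, and the myeloid lectin Clec4d 11.0 and 10.9.

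Marco had the lowest signal of the 10 genes. It encodes a scavenger receptor with a collagen-like stem that binds bacteria and is also known from the marginal zone of the spleen. Its single set gave 23.6 on replicate 1 and 18.8 on replicate 2 (21.2 ± 3.39), at percentile 8.3, and neither value was near the threshold. Other scavenger receptors were mixed. Of 9 measured, 4 passed (44.4%), and without members 3 of 6: Scarb1, the receptor of high-density lipoprotein (5387.3 and 5280.8), its lysosomal relative Scarb2 (1648.5 and 1757.0) and Stab1, found on sinusoidal endothelium and macrophages (599.0 and 495.7). Msr1, the macrophage scavenger receptor A, gave 139.6 and 117.8, and Olr1 49.7 and 31.6.

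The upstream sequences of Clec4f (chr6:83656117-83656366, minus strand) and Marco (chr1:120505025-120505274, minus strand) are shown to set a bright member beside a dim one, in the same form and from the same source.
Clec4f: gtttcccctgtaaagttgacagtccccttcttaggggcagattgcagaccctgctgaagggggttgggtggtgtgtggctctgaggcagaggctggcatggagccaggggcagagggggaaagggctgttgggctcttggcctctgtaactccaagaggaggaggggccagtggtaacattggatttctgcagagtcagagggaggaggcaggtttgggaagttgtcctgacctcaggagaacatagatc
Marco: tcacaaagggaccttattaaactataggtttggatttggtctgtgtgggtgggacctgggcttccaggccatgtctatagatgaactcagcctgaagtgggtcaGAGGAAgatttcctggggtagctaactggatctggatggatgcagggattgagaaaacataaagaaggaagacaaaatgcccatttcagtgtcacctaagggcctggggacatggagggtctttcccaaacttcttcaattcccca
The letters GAGGAA were absent from the 250 bases of Clec4f and present at 146 bases before the start in Marco. Nothing about PU.1 itself follows from either. Spi1, the gene of PU.1, gave 229.5 on replicate 1 and 249.9 on replicate 2 and was not above background.

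Upstream sequences of 7 members were matched by symbol, namely C1qb, C1qc, Clec4f, Cd5l, Cd68, Marco and Lyz2. Csf1r was left out before matching, and C1qa and Adgre1 had no entry under their symbols. Each of the 7 sequences was searched on both strands for 7 short motifs. For each motif the share of all 32851 upstream sequences of 250 bases in the table that hold the same letters is given. GAGGAA was in 5 of the 7 (C1qb, C1qc, Cd5l, Cd68 and Marco), against 23.3% of all. AGGAAG, another core of the ETS family that shares 5 letters with the first, was in 5 (C1qb, C1qc, Cd5l, Marco and Lyz2), against 29.5%. The TATA box letters TATAAA were in 0 of 7, against 12.4%, and the E-box CACGTG in 0, against 6.02%. The AP-1 letters TGACTCA were in 1, Cd68, where they occurred 149 and 24 bases before the start, against 4.46%. The GC box GGGCGG was in 2 (C1qc and Cd68), against 32.7%, and TGACCT, a half-site of nuclear receptors, in 2 (C1qc and Clec4f), against 14.0%. The G and C content of the 7 ran from 41.6 to 57.2%, with a median of 52.4% over the table. With 7 sequences these counts are descriptions.

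Csf1r was above background, but Csf1, a growth factor that binds this receptor, was not. The brighter set of Csf1r gave 1314.1 on replicate 1 and 829.3 on replicate 2 (1072 ± 342.8), at percentile 84.0. The other set of Csf1r gave 224.1 and 337.3. Only the brighter set passed, and with the threshold at the 99th percentile of the background genes (997.4 and 911.5) replicate 2 no longer did. Csf1 gave 269.7 and 298.3. Of 11 measured genes of this receptor and its partners, 2 were above background (18.2%), Csf1r and the adaptor Grb2 (660.8 and 610.8). The lowest was Csf2rb, a receptor chain for other colony-stimulating factors, at 30.8 and 32.9. The other 9 genes of the list, Csf1 and Csf2rb included, were below the threshold on both arrays.

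The lysosomal members Lyz2 and Cd68 lay lower. Lyz2, lysozyme M, cleaves bacterial cell walls and is made by macrophages, monocytes and granulocytes. Its brighter set gave 919.3 on replicate 1 and 796.2 on replicate 2 (857.8 ± 87.0), at percentile 81.1, and passed on both arrays. Its other set gave 3.3 and 6.1. With the threshold at the 99th percentile, or with the mean of its sets, Lyz2 was not above background. Cd68, a heavily glycosylated protein of macrophage lysosomes, gave 529.0 and 463.3 in its brighter set (496.2 ± 46.5), at percentile 69.4, so replicate 1 lay just above its threshold and replicate 2 just below. With the 90th percentile as threshold (313.8 and 325.5) both values passed. The other set of Cd68 gave 11.8 and 12.8.

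Lyz2 lies beside its near copy Lyz1 in the RefSeq table, and a further probe set is assigned to both genes and so was left out of the 15. Its signals were 1115.7 (replicate 1) and 973.2 (replicate 2), and both exceeded the threshold. It cannot be assigned to either gene, and Lyz1 had no set of its own. The 250 bases before the start of Lyz2 (chr10:117282273-117282522, minus strand) and Lyz1 (chr10:117292869-117293118, minus strand) are shown from RefSeq, build GRCm38.p6, to let the copies be compared, with no capitals because GAGGAA is in neither.
Lyz2: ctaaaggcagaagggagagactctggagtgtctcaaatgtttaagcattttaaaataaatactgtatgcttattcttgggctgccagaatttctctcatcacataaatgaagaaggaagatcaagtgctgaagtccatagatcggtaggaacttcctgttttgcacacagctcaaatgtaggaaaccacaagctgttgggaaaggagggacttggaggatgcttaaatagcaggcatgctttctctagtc
Lyz1: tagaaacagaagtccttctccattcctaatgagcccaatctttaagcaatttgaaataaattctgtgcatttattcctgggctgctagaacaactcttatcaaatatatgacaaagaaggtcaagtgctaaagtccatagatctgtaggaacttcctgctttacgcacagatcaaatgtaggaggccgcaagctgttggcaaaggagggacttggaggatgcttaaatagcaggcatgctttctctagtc
Set against each other without gaps from the start backwards, 92 of the last 100 bases were identical, and 152 of 250 over the whole stretch.

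Other lysosomal proteins are made by most cells. Of 9 measured genes of lysosomal membranes and lysozymes 7 were above background (77.8%), and without the members 6 of 7. Lamp1, a glycoprotein of the lysosome membrane, gave 12185 on replicate 1 and 12235 on replicate 2, and Lamp2, its relative, 3082.4 and 3615.9. Laptm4a gave 2691.8 and 2740.5, and the lowest, Cd63, a tetraspanin of lysosomes, 157.4 and 154.7.

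Adgre1 was not above background. It encodes F4/80, the surface protein by which mouse macrophages are commonly stained. Its brighter set gave 192.7 on replicate 1 and 251.7 on replicate 2 (222.2 ± 41.7), at percentile 49.7, near the median of all genes, and its other set 23.2 and 41.2. None of the 7 measured adhesion G protein-coupled receptors passed on both arrays. The highest were Adgrl1 (408.6 and 389.9) and Celsr2 (593.0 and 149.3), and Adgre5, the closest relative of Adgre1 in the list, gave 129.1 and 66.0. The lowest was Adgrb1, a receptor for dying cells, at 15.1 and 53.3.

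**Figure D2:**
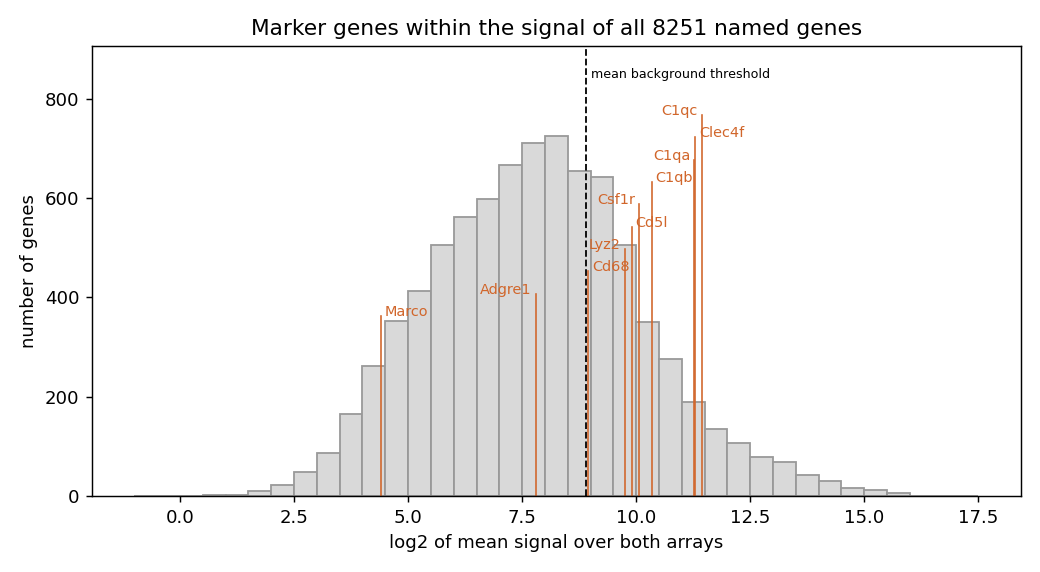
Number of genes in each bin of log2 mean signal for all 8251 named genes (grey bars), with the 10 marker genes as vertical lines of arbitrary height and the mean of both background thresholds as a dashed line. The C1q genes and Clec4f lie on the right shoulder, Adgre1 near the middle and Marco on the left flank.

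In each of the 5 genes with 2 sets, the second set was under the threshold on both arrays. In 3 of these genes, C1qb, Csf1r and Lyz2, the brighter set passed on both arrays while the other did not. Such a split is common on this array: of 608 genes with exactly 2 sets and the brighter one above background, 477 (78.5%) had the other below. All 5 second sets carry identifiers that begin with 16. Of the 2109 named sets numbered so, 343 (16.3%) were above background on both arrays, against 26.5% of the other 8724. The 15 sets included 11 plain ones and 4 with a suffix that sets them apart from plain ones (1 of suffix s, 2 of suffix i and 1 of suffix r). The set of suffix s is the brighter set of Cd68, and the other set of Cd68 is of suffix i. No plain set read Cd68.

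The arrays were then set against each other. Differences are log2 of replicate 2 over replicate 1 after subtracting the median of the brighter 50% of probe sets (-0.0058), and each is set beside the SD of the same difference in the 500 probe sets of nearest mean signal. No marker differed by over 2-fold, while 14.0% of all genes did. The share over 2-fold was 0.2% among the 500 probe sets nearest in signal to C1qa and 44% among those nearest to Marco. The median difference of the 10 was -0.11, against -0.02 for all genes. On replicate 2, 4 genes were higher and 6 were lower. With 1 array on each side there is no replicate check and no test.

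Csf1r differed most among the bright markers. It was lower on replicate 2 by 1.58-fold (log2 -0.66), against an SD of 0.23 for sets of like signal. C1qb was higher on replicate 2 by 1.34-fold (0.42, SD 0.22) and C1qc by 1.18-fold (0.24, SD 0.19). C1qa, the remaining chain, was at -0.08 (SD 0.19). Beyond 1 SD lay 3 of the 10 markers, Csf1r, C1qb and C1qc, a share close to the 27.4% of all genes. The other 7 lay within it: Clec4f at 0.13 (SD 0.19), Cd5l at -0.13 (SD 0.25), Lyz2 at -0.20 (SD 0.25), Cd68 at -0.19 (SD 0.31), Adgre1 at 0.39 (SD 0.46) and Marco at -0.32 (SD 1.42), together with C1qa.

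The second sets of Csf1r and C1qb went the other way. That of Csf1r was higher on replicate 2 by 0.60 (SD 0.47) and that of C1qb lower, at -0.61 (SD 0.39). Counting every pair, the sets of 4 of the 5 genes differed in direction, all but Adgre1, against 50.1% of the 1675 genes with exactly 2 sets. The shared set of Lyz1 and Lyz2, at -0.19, lay close to the brighter set of Lyz2. The difference of Csf1r between the arrays was thus not repeated by its own second set, and that set was not above background.

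**Figure D3:**
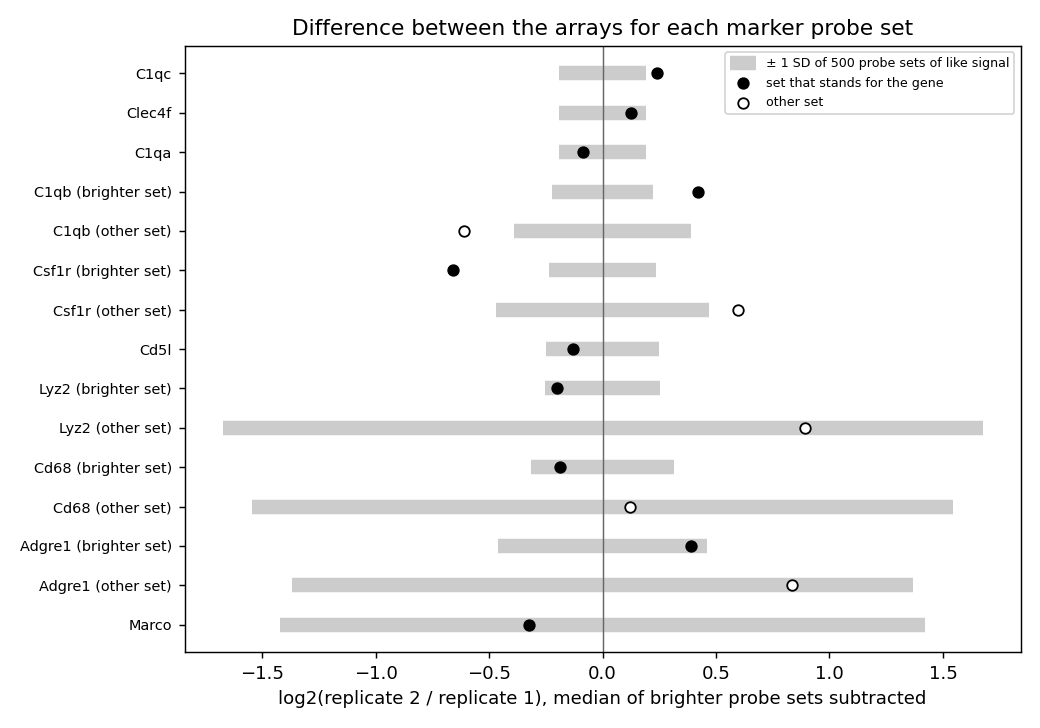
Log2 of replicate 2 over replicate 1 for the 15 marker probe sets (filled points for the set that stands for the gene, open points for the other), over grey bars of plus and minus 1 SD of the 500 probe sets of nearest signal. The brighter sets of Csf1r and C1qb lie outside their bars on opposite sides at -0.66 and 0.42, and their second sets lie outside on the reverse sides.

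Other genes of macrophages were dimmer as a list than the 10 markers. Both lists were chosen with earlier results of these data known, so this contrast may follow from the choice. Of 24 measured genes of macrophages and Kupffer cells outside the 10, 8 were above background (33.3%), close to the 29.5% of all genes, with a median percentile of 55.1. Among them Ctss, the lysosomal protease cathepsin S, gave 1864.8 on replicate 1 and 1907.6 on replicate 2. Hmox1, which degrades haem from red cells, gave 1108.3 and 1214.2, and Mpeg1, a pore-forming protein of macrophages, 1068.8 and 922.5. Tyrobp, a signalling adaptor of myeloid receptors, gave 666.9 and 581.5, whereas Fcer1g, its relative, gave 83.5 and 87.2. The lowest was Siglec1, a sialic acid receptor of macrophages (19.6 ± 10.7).

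Of 10 measured transcription factors of macrophages 3 passed (30%), close to the 29.5% of all genes. Cebpb, which hepatocytes also use, gave 5489.1 and 5971.4, Nr1h3, the liver X receptor alpha, 1803.3 and 1955.4, and Id3, a regulator of Kupffer cell development, 672.3 and 638.3. Which cells the signal of these 3 genes came from was not tested. The rest of the list was below the threshold on both arrays. Spic, the factor of red pulp macrophages of the spleen, gave 53.3 and 41.4, and Runx1 10.3 and 8.4. These values were not used to settle the conflict between the titles and the source field, which was not tested. Beside it stand the lists read below, with 13 of 13 hepatocyte genes and 0 of 14 lymphocyte genes above background on both arrays. Alb, albumin, gave 64626.5 on replicate 1 and 65799.7 on replicate 2.

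Some of the 10 markers are also made by other blood cells, so lists of those cells were read beside them. Of 16 measured genes of monocytes, dendritic cells and granulocytes, 2 were above background (12.5%), with a summed signal of 3215 on replicate 1 and 3312 on replicate 2. They were the receptors Csf3r (625.9 and 790.6) and Flt3 (597.7 and 538.9), while Ctsg, a granule protease, gave 21.7 and 13.6. Of 14 lymphocyte genes 0 were above background on both arrays, and Cd4, which passed on replicate 2 alone, gave 337.3 and 503.0. Cd79a, of B cells, gave 450.3 and 333.4, Cd3e, of T cells, 56.0 and 51.5, and Cd8a 22.2 and 15.4. The summed signal of that list was 1707 and 1869. Sums over different probe sets are not comparable between lists. The part of such cells in the signal of Lyz2, Cd68 and Csf1r was not tested.

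Among the cells that share the sinusoid, 2 of 13 endothelial genes were above background (15.4%), the co-receptor Eng (3677.0 and 4025.7) and Stab1. Of 10 stellate cell genes 4 were (40%), led by the proteoglycan Dcn (6586.6 and 7025.9), and of 13 hepatocyte genes all 13 were (100%), at a median percentile of 99.8. The 7 of 10 of the Kupffer cell markers lies between these lists. The lists differ in how well each gene's probes work, and no test was made between them.

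**Figure D4:**
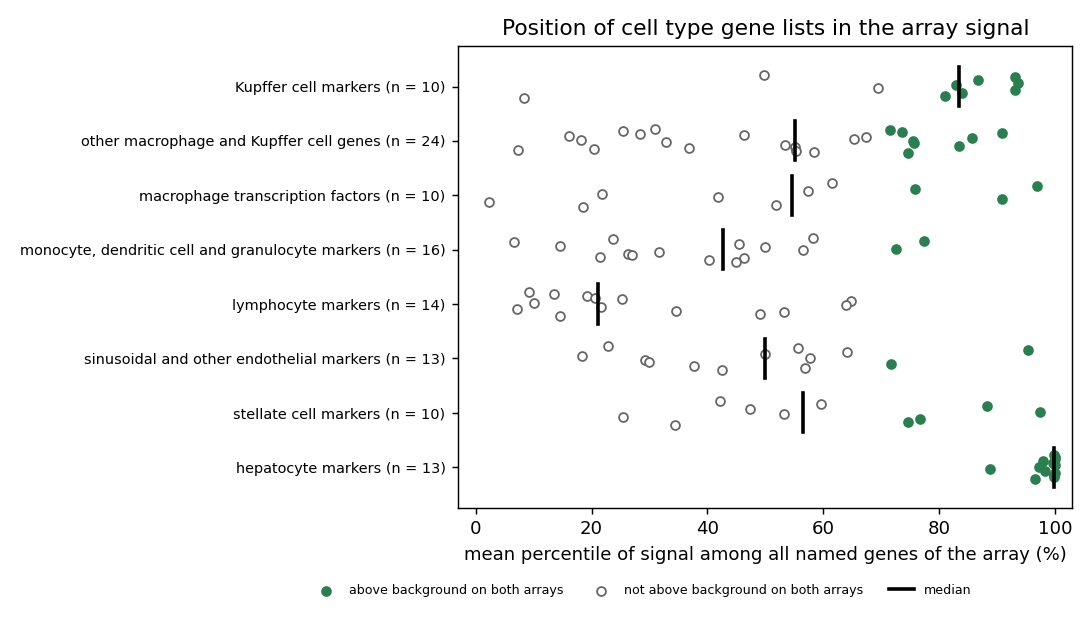
Mean percentile of signal over both arrays for each measured gene of 8 lists (1 point per gene, filled where above background on both arrays), with the median of each list as a black bar. The medians are 83.5 for the Kupffer cell markers, 55.1 for the other macrophage genes, 21.1 for lymphocyte genes and 99.8 for hepatocyte genes. The lists were chosen with earlier results of these data known.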

How the data were processed

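Total RNA, of mouse liver by the titles and descriptions, was measured in 2 samples, 1 array each. The authors deposited 1 signal intensity per Affymetrix probe set on a linear scale. How signals were summarised and scaled, with which software, is not given in the sources used here, and background correction and normalization were not repeated, which can change low signals most.

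Of 12488 probe sets, 66 are controls. The platform annotation named 1 gene for 10833 others, covering 8251 genes, several for 396 sets and none for 1237. Gene identifiers of 10817 sets matched RefSeq (GRCm38.p6), with 0 symbols changed. A gene was read from its set of highest mean log2 signal. Sums, percentiles and differences were computed in Python 3.11.15 with numpy 2.4.6 and pandas 2.3.3, and figures with matplotlib 3.10.9. The median difference, the spread of like sets and the over 2-fold call were tested on simulated data with the same spread at every signal. Sums, percentiles and the sequence search were not tested so. With 1 group, no p-value was computed. The members and gene lists were chosen with earlier results of these data known. Protein sequences were not used here.

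Named genes are the members, in each list the 3 genes of highest mean percentile and the bottom one, and fixed genes of interest, shortened to those a result turns on. Asgr2 was named after its values were seen. The 4 background genes above the threshold were Tnp1, Pvalb, Acta1 and Pcp2, with mean signals of 1104, 944.9, 739.8 and 769.8. Alternatives were the mean of a gene's sets, no suffixed sets, other thresholds, log2(value + 32), no median subtracted, quantile normalization and each array alone.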

Additional observations from a re-analysis of the deposited data

Results flagged for a closer look

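The probe set shared by Lyz1 and Lyz2 carried signal outside the sets of single genes. Its signals of 1115.7 (replicate 1) and 973.2 (replicate 2) both exceeded the background threshold. Which of the 2 genes it reads was not tested.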

How the results depend on the processing

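No paired analysis was possible because there is 1 group. The count of markers above background was 7 of 10, against 29.5% of all genes. It was 5 with the 99th percentile threshold (15.99% of all genes), 8 with the 90th (38.0%) or a fixed signal of 200 (49.3%), 6 with the mean of a gene's sets (32.3%), 7 of 9 without suffixed sets (36.4%), where Cd68 had no value, and 7 with quantile normalization (29.6%). C1qa, C1qb, C1qc, Clec4f and Cd5l passed in every one of these, Marco and Adgre1 in none. Some of these calls were narrow. Cd5l gave 911.7 on replicate 2, where the 99th percentile threshold was 911.5. Adgre1 exceeded the fixed signal of 200 on replicate 2 (251.7) but not on replicate 1 (192.7). With each array alone the count of markers was 7 (31.2%) to 8 (31.6%). The median percentile, 83.5, was 79.0 with the mean of a gene's sets and 81.6 to 84.2 with each array alone. The related genes above background numbered 44 of 139, and 68 with a fixed signal of 200. The median difference between the arrays ran from -0.11 to -0.03. Of 98 values of single genes under the alternatives, 8 moved by more than their spread, all with the mean of a gene's sets. Many of the 98 could not move by that rule. The signal on 1 array always lies within 1 SD of the mean of 2 arrays. Genes with 1 set keep their value when sets are averaged, and the 9 genes left without suffixed sets kept theirs. The count of 8 is therefore no measure of stability. With the mean of a gene's sets the difference of Csf1r between the arrays was -0.03, and those of C1qb (-0.09) and Lyz2 (0.35) changed sign. Having 2 arrays limits the precision of every value.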
